A study of Mus musculus with 5 samples.

Results

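The cells described here are monocytes and dendritic cells of aged mouse skeletal muscle, 298 of the 50460 retained cells of the series and 298 of its 56922 deposited barcodes. They were selected on their own counts. Barcodes were retained when 200 or more genes were detected and no more than 10% of UMIs were mitochondrial (UMIs are unique molecular identifiers, each standing for 1 captured RNA molecule). A member also carried the pan-leukocyte gene Ptprc and at least 3 of 7 genes (Ccr2, Plac8, Itgax, Flt3, Cd209a, Clec10a and Ms4a4c). It carried at most 1 of the 3 resident macrophage genes Cd163, Folr2 and Pf4, and at most 1 UMI summed over the T-cell, killer-cell and mast-cell genes Cd3e, Nkg7 and Cpa3. Levels of these genes in the members therefore restate the rule and are given without a test.

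All libraries came from the tibialis anterior, a fast hind-limb muscle, of female C57BL/6 mice aged 26 months, with no genetic change or treatment named in the labels. Mice at or above 0.18 on a frailty index of accumulated deficits were the frail group (2 libraries), and mice below it were the controls (3 libraries). The series text speaks of 2 frail and 3 control mice, so the 5 libraries were taken as 5 mice. Frail and control mice were all old, and no young muscle was analysed here. The labels describe both an enzymatic digest of whole cells and a lysis that yields nuclei, and the choice between them could not be settled.

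Classical monocytes are made in bone marrow, leave it through the chemokine receptor Ccr2, and enter tissues, where they can become macrophages or dendritic-like cells. Non-classical monocytes patrol the vessel wall. Conventional dendritic cells come from a separate precursor that depends on the growth factor receptor Flt3, take up antigen and show it to T cells on MHC class II. Type 1 dendritic cells (cDC1: Xcr1, Clec9a, Irf8, Batf3) specialise in presenting antigen to CD8 T cells, and type 2 cells (cDC2: Cd209a, Mgl2, Clec10a, Irf4) in presenting to CD4 T cells. In muscle these cells sit among a larger population of resident macrophages.

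The 5 libraries held 9351, 10517, 8650, 9854 and 12088 retained cells (frail 1 and 2, then control 1 to 3, the order used throughout). The members numbered 37, 56, 81, 79 and 45. Their median depth was 13570 UMIs and 3462 genes per cell, against 6260.5 UMIs over all retained cells. Their summed UMIs ranged from 544582 in frail 1 to 1296584 in control 2. Of 348 barcodes found in more than 1 library, 1 belonged to a member. Doublets were not removed by the rule. A doublet score removed 25 members (8.39%), against 4.60% of all retained cells, when used as an alternative.

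The label held for some markers that the rule did not use, and not for others. Xcr1 and Clec9a, of cDC1, were detected in 9.73% and 11.1% of members and in 3 and 2 of 1503 resident macrophages (Ptprc cells with at least 2 of Cd163, Folr2 and Pf4 and under 3 of the 7 member genes). Treml4, 1 of 4 listed non-classical monocyte markers, was detected in 12.1% against 0.0665%, and the integrin gene Itgal in 35.9% against 1.93%. The sum of all 4 is given below and did not set members above stromal cells. The class II gene H2-Ab1 did not tell the cells apart by detection, at 274 of 298 members (91.9%) and 1382 macrophages (91.9%). It was detected in 21.5% of 13950 stromal reference cells (Pdgfra and Dcn present, Ptprc and Pecam1 absent, median depth 8019 UMIs), the level that free RNA can give.

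The cDC2 markers were shared with macrophages. Mgl2 was detected in 48.0% of members and 89.6% of resident macrophages, Clec10a in 55.7% and 71.9%, and Cd209a in 41.6% and 42.0%. Summed over the 5 cDC2 markers, members held 307, 945, 942, 886 and 799 CPM (UMI counts scaled to a common total in each sum of cells) and macrophages 1457, 892, 1910, 1544 and 1180. Macrophages were higher in all libraries but frail 2, so the label of cDC2 rests on markers that do not separate the cells, and Cd209a, Clec10a and Flt3 are also in the rule. The 4 non-classical monocyte markers summed to 95.5, 85.9, 199, 131 and 139 CPM in members and 33.6 to 70.3 in macrophages. Stromal reference cells held more in every library, at 280, 261, 265, 288 and 292. Of the 6 classical monocyte markers, Ms4a4c is also in the rule, so their difference from macrophages follows from it in part. The 6 markers summed to 1673, 760, 927, 362 and 509 in members. They summed to 211 to 328 in stromal cells and 21.9 to 39.7 in macrophages.

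Of the rule's own genes, Ccr2 was found in 281 members (94.3%), Clec10a in 166, Ms4a4c in 161, Itgax in 144, Plac8 in 140, Cd209a in 124 and Flt3 in 88. The T-cell genes Cd3g and Cd8a and the killer-cell gene Ncr1 had no UMI in any member, after a rule that itself limits such cells. Of 6 B-cell markers Cd79a was at 0, but 20 members carried at least 2 of the others, and their sum was 75.3, 71.0, 79.6, 87.2 and 51.9 CPM against 149 to 246 in resident macrophages. The group was mixed, and 172 members carried 1 of the 3 resident macrophage genes.

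Most members stood close to the threshold. Just inside it were 160 cells with 3 of the 7 genes, and 85, 35, 17 and 1 cells had 4, 5, 6 and 7. Just outside were 216 cells with 2 of the 7. The cells just inside held 5131 CPM of H2-Ab1, 10600 of Lyz2 and 450 of the complement gene C1qa. The cells just outside held 5965, 8749 and 1121. A further 237 cells met the 3-gene minimum but carried 2 or 3 resident macrophage genes, and 7 were left out by lymphoid or mast-cell UMIs.

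Monocytes and dendritic cells made up 0.396%, 0.532%, 0.936%, 0.802% and 0.372% of the retained cells. The 95% Wilson intervals, which cover counting error only, were 0.287 to 0.545% in frail 1, 0.410 to 0.691% in frail 2, 0.754 to 1.16% in control 1, 0.644 to 0.998% in control 2 and 0.278 to 0.498% in control 3. Control 3 was the lowest of all, so the groups overlapped. The frail mean was 0.464 ± 0.0967% (SD, n = 2) and the control mean 0.703 ± 0.295% (SD, n = 3), a log2 ratio of -0.60 with an exact two-sided permutation p of 0.4 (adjusted p = 0.988 over 21 shares). Among the 126 members with none of Cd163, Folr2 and Pf4 the log2 ratio was -0.14. With 2 libraries against 3 the smallest p that such a test can reach is 0.1.

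The share depended on what it was set against. Among retained cells with Ptprc, members were 8.45%, 8.75%, 9.47%, 10.1% and 4.63%, and the frail mean was the higher one (8.60 ± 0.214% against 8.06 ± 2.98%, log2 ratio 0.09, exact permutation p = 1). Ptprc cells as a whole were 4.68% and 6.09% of retained frail cells and 9.88%, 7.96% and 8.03% of control cells. Those groups did not overlap, and the exact permutation p was at its minimum of 0.1 (adjusted p = 0.7). For every 100 resident macrophages there were 23.7, 20.6, 19.3, 25.6 and 13.0 members.

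**Figure D1:**
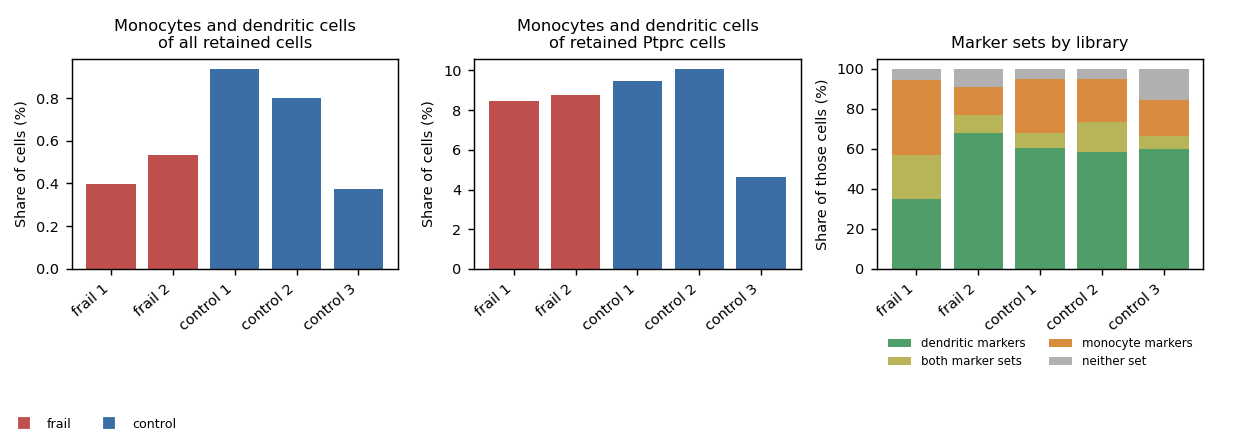
Share (%) of monocytes and dendritic cells among retained cells (left) and among retained Ptprc cells (middle) in each of the 5 libraries, with the make-up of the cells by marker set (right, stacked to 100%). Bars are single libraries. Control 3 has the lowest share on both scales, and frail 1 has the fewest dendritic-marker cells (35.1%).

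Members were next sorted by marker lists for each kind of cell, with 2 markers as the minimum. Dendritic markers alone (cDC1, cDC2 or mature) were carried by 173 members, markers of classical monocytes alone by 69, both by 34 and neither by 22. At least 2 of the cDC2 markers, which macrophages share, were carried by 188 members, and at least 2 cDC1 markers by 60. The term dendritic-marker cells stands for this sorting only. Mature dendritic cells (Ccr7, Fscn1, Ccl22) were 4 members and plasmacytoid dendritic cells 1.

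Dendritic-marker cells were 13, 38, 49, 46 and 27 in number. They made up 35.1%, 67.9%, 60.5%, 58.2% and 60% of the members. Frail 1 lay far below the other 4 libraries and frail 2 above all of them, so the frail libraries bracketed the controls. The mean was 51.5 ± 23.1% (SD, n = 2) in frail and 59.6 ± 1.19% (SD, n = 3) in control muscle, with an exact two-sided permutation p of 0.7. The log2 ratio of -0.21 turned to 0.19 without frail 1 and was -1.39, with an exact p of 0.1, when every cell was first thinned to 2000 UMIs. The thinned rule kept 15, 10, 27, 21 and 10 members.

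Non-classical monocyte markers (Ace, Treml4, Spn, Adgre4) were carried, at least 2 of them, by 10.8% and 19.6% of frail members and 23.5%, 30.4% and 26.7% of control members. Both frail libraries lay below all controls, with an exact permutation p of 0.1 (adjusted p = 0.7). One of these markers, Ace, was also detected in 67.4% of stromal reference cells, and its part in this share was not tested. Treml4 alone gave another order, at 18.9%, 8.93%, 16.05%, 11.4% and 4.44% of members (0.0215% of stromal cells), with frail 1 highest. Treml4 or Adgre4 was found in 24.3%, 28.6%, 33.3%, 39.2% and 22.2%, and there the groups overlapped. Classical monocyte markers were carried by 59.5%, 23.2%, 34.6%, 36.7% and 24.4% of members, with frail 1 highest. At least 2 of 6 neutrophil markers were carried by 21.6%, 3.57%, 3.70%, 1.27% and 2.22% of members, also with frail 1 highest. Of these 15 cells, 10 were monocyte-marker cells, and their part in the classical share was not tested. The cDC1 markers were carried by 18.9%, 21.4%, 19.8%, 20.3% and 20%. The cDC1 share was nearly the same in all 5 libraries by this list. By Xcr1 or Clec9a alone it was 8.11%, 19.6%, 12.3%, 13.9% and 11.1%, with frail 1 lowest and frail 2 highest.

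Dividing cells were few. Mki67 and Top2a, both made in dividing cells, were found together in 22 members (7.38%), 3, 2, 2, 12 and 3 by library, and 12 of the 22 came from control 2. Of these cells 17 carried dendritic markers and 1 carried monocyte markers. Their median depth was 23977.5 UMIs, above that of the members as a whole.

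Dendritic-marker and monocyte-marker cells were compared within each library, as summed UMI counts in CPM. These cells were sorted by counts of the same libraries, so the comparison is a description with no test, and some libraries rest on 8 monocyte-marker cells. Of the 69 monocyte-marker cells, 10 carried at least 2 neutrophil markers, and their part in the values below was not tested. Of 8869 genes with a mean of at least 10 CPM, 9.3% were higher in dendritic-marker cells in all 5 libraries and 8.98% were lower in all 5. Values are CPM, read from the 3′ ends of transcripts, and they compare 1 gene between cells, not genes with each other.

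MHC class II genes were higher in dendritic-marker cells. Of the 12 listed genes of the pathway, 9 were higher in dendritic-marker cells in 5 of 5 libraries and 1 was lower in 5 of 5, with a median log2 ratio of 1.72 against -0.06 over all genes. H2-Ab1, which encodes the beta chain of the peptide-binding molecule, was at 6744, 8971, 8252, 6965 and 7158 in dendritic-marker cells. In monocyte-marker cells it was at 2823, 98.5, 1291, 4178 and 1471. The sets did not overlap in any library, though monocyte-marker cells varied widely and frail 2, with 8 such cells, was lowest.

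The partner chain H2-Aa averaged 7796 ± 1405 (SD, n = 5) against 2338 ± 1936. H2-Eb1, the second class II beta chain, averaged 6457 ± 979 against 1781 ± 1584. Cd74, the invariant chain that guides class II to the endosome, averaged 21671 ± 3125 against 6676 ± 5108. The genes of the peptide exchanger moved the same way: H2-DMa stood at 936 against 367 and H2-DMb1 at 807 against 278.

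The sharpest separations were in H2-DMb2 and in H2-Oa and H2-Ob, whose product restrains that exchanger. H2-DMb2 was at 115, 130.5, 136, 169 and 77.3 in dendritic-marker cells and at 0, 0, 0, 4.77 and 23.0 in monocyte-marker cells. H2-Ob was at 15.8, 75.0, 68.7, 49.8 and 38.7 against 0, 0, 0, 9.55 and 0. The protease gene Ctss, which trims the invariant chain, ran the other way, at 1183 ± 358 against 1661 ± 162, and was lower in dendritic-marker cells in all 5 libraries.

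The promoters of the class II genes carry known shared boxes, and these are shown because all 6 genes printed were higher in dendritic-marker cells by the count above. Windows of 250 bases before to 50 bases after a start site were matched for 9 of the 12 listed genes in RefSeq (GRCm38.p6). The motif TGATTGG, the Y box of class II promoters and an inverted CCAAT, was searched on both strands (CCAATCA on the other). It lay in the windows of 6 of these 9 genes and in 7.82% of all 32851 windows. The 70 bases around it are given 5′ to 3′ on the strand of the gene, with the motif in capitals.
H2-Aa (chr17:34287849-34287918, minus strand): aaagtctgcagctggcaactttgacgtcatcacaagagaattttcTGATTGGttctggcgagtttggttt
H2-Eb1 (chr17:34305761-34305830, plus strand): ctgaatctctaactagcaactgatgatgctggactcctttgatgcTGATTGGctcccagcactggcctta
H2-DMb1 (chr17:34153083-34153152, plus strand): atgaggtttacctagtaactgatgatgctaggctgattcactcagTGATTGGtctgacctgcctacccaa
H2-DMb2 (chr17:34145112-34145181, plus strand): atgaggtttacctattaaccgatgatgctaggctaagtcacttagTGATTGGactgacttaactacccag
H2-Oa (chr17:34092289-34092358, plus strand): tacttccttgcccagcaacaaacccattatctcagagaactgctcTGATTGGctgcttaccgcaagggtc
H2-Ob (chr17:34238801-34238870, plus strand): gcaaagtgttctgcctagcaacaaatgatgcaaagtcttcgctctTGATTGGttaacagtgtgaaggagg

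In all 6 windows the motif stood upstream of the start, beginning 50, 61, 63, 92, 45 and 59 bases before it in the order shown. The windows of H2-DMa, Ctss and Ifi30 did not hold these letters. A match of letters is a description and shows no binding.

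Receptors and adhesion molecules also differed between the cells. Itgal, the alpha chain of LFA-1, was at 19.8, 35.9, 22.5, 31.7 and 14.5 in dendritic-marker cells and at 162, 87.6, 502, 272 and 276 in monocyte-marker cells. The sets did not overlap in any library.

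Of the 10 receptor genes measured, 4 were lower and 2 higher in dendritic-marker cells in all 5 libraries. The lower ones were Ccr2, Ccr1, Csf1r and Csf3r. Csf1r, the receptor for the macrophage growth factor, averaged 186 ± 53.7 against 409 ± 200, and Csf3r, the granulocyte growth factor receptor, 1.47 ± 2.17 against 63.1 ± 24.0. Higher were Flt3, which is in the rule, and Csf2ra, a chain of the GM-CSF receptor, at 297 ± 12.4 against 193 ± 53.6.

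Innate sensing and interferon genes were on the monocyte side. Of 15 measured pattern recognition genes, 8 were lower and 1 higher in dendritic-marker cells in 5 of 5 libraries. Clec4e, the receptor Mincle, averaged 43.0 ± 25.7 against 183 ± 81.7, and Tlr2, which senses bacterial lipoproteins, 65.1 ± 9.45 against 131 ± 15.8. The 1 higher gene was Tlr3, the sensor of double-stranded RNA. It is also one of the cDC1 markers by which cells were sorted. Of 19 interferon-response genes, 9 were lower and none higher in 5 of 5 libraries. Ly6e averaged 261 ± 63.6 against 1476 ± 296, Ifitm3, which blocks virus entry, 1254 ± 41.9 against 3675 ± 909, and Irf7, a driver of interferon genes, 30.4 ± 3.94 against 147 ± 67.5.

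Lineage transcription factors fell on both sides. Irf4, Batf3, Id2 and Bhlhe40 were higher in dendritic-marker cells in all 5 libraries, and 4 factors, among them Cebpb, Spi1 and Nr4a1, were lower. Batf3, needed for cDC1, averaged 159 ± 33.7 against 49.3 ± 17.4. Cebpb, a myeloid factor, averaged 351 ± 52.8 against 1382 ± 473.

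Cell-cycle genes were higher in dendritic-marker cells in 5 of 5 libraries for 8 of 13 genes and lower for none, with a median log2 ratio of 3.28. Mki67 was at 67.2, 14.7, 36.2, 183 and 111 in dendritic-marker cells and at 11.6, 0, 0, 14.3 and 0 in monocyte-marker cells. The spread was wide, with control 2 highest.

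Outside the lists, Retnla and Fcrls were among the genes with large ratios, and were chosen after their values were seen. Retnla, the secreted protein RELM-alpha, was at 5776, 7744, 9233, 7976 and 10878 in dendritic-marker cells and at 29.0, 32.8, 85.8, 105 and 57.5 in monocyte-marker cells. Fcrls averaged 326 against 2.67. Retnla averaged 5717 ± 1711 (SD, n = 5) in resident macrophages and 19.9, 38.8, 54.3, 66 and 46 by library in stromal reference cells. The monocyte-marker level was thus of the order of the background, and the dendritic-marker level of the order of that in macrophages. Slpi, a secreted protease inhibitor, led the other side, at 227 against 0.250 on average.

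**Figure D2:**
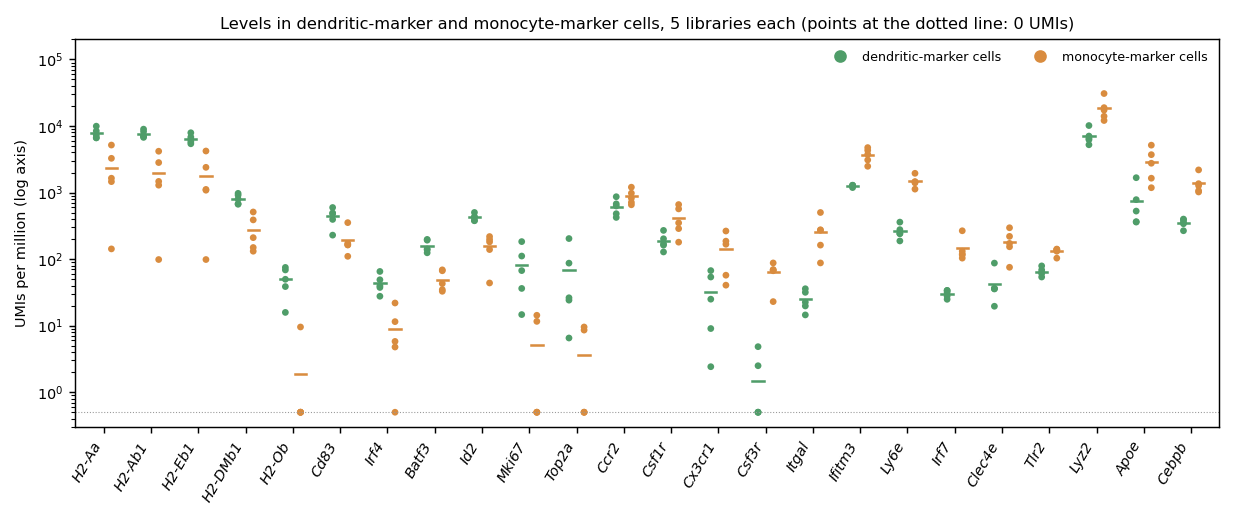
CPM (log axis) of 24 genes in dendritic-marker cells (green) and monocyte-marker cells (orange), 1 point per library and a line at the mean of the 5. Class II genes separate in every library, with the lowest monocyte-marker point (98.5 for H2-Ab1) from frail 2, and Itgal is higher in monocyte-marker cells in all 5 libraries.

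Stricter sets were formed from marker pairs, each without the other pairs named here, after the values were seen. They were 31 cells with Xcr1 or Clec9a (cDC1 pair), 150 with Cd209a or Mgl2 (Cd209a/Mgl2 pair) and 66 with Ly6c2 or Chil3 (classical monocyte pair). Before exclusion the cDC1 pair was found in 40 members and the Cd209a/Mgl2 pair in 179, and 9 cells had both. Cells with Treml4 or Adgre4, of non-classical monocytes, were not excluded. Before exclusion they were 39 of 87 classical-pair, 49 of 179 Cd209a/Mgl2-pair and 7 of 40 cDC1-pair cells. The 31 cDC1-pair cells were 1, 10, 8, 8 and 4 by library, so values of frail 1 rest on 1 cell.

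The cDC1-pair cells differed from the Cd209a/Mgl2-pair cells in genes that did not choose them. Irf8, the factor that cDC1 require, was detected in 100% of the cDC1-pair cells and 25.3% of the Cd209a/Mgl2-pair cells. It stood at 1558, 1487, 979, 1304 and 1229 in the cDC1-pair cells by library, and at 76.6, 10.2, 22.4, 25.0 and 12.7 in the Cd209a/Mgl2-pair cells. The 2 sets did not overlap in any library. Itgae, the CD103 integrin chain, had 98.2 CPM over all cDC1-pair cells and none in the 150 Cd209a/Mgl2-pair or 66 classical-pair cells. Cadm1 stood at 144 against 10.6, Wdfy4, which cDC1 use to cross-present, at 444 against 45.4, and Zbtb46, a factor of conventional dendritic cells, at 61.9 against 6.65.

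Antigen handling also differed between these sets. H2-Ab1 was close, at 8001 pooled in the cDC1-pair cells and 7467 in the Cd209a/Mgl2-pair cells. H2-Ob stood at 180 against 21.5, Ctss at 407 against 1269 and Naaa, a lysosomal enzyme, at 1026 against 309. Ctss was lower in the cDC1-pair cells in each library, at 390, 554, 486, 197 and 415 against 1412, 1257, 1734, 927 and 1155.

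The Cd209a/Mgl2-pair cells held macrophage genes, and Mgl2, by which many were chosen, is detected in 89.6% of resident macrophages, so they are named by their genes and not as cDC2. Their pooled Retnla level was 10242, against 34.6 in the cDC1-pair cells. Fcrls stood at 445 against 3.64, Ccl9, a chemokine, at 1131 against 7.28, Lyz2, the macrophage lysozyme, at 8783 against 1177, Csf1r at 242 against 5.46 and Zeb2 at 497 against 30.9. Mmp12, the macrophage elastase, had 94.3 CPM in the Cd209a/Mgl2-pair cells and none in the other sets. Il6 stood at 108 in the Cd209a/Mgl2-pair cells, 1.82 in the cDC1-pair cells and 13.6 in the classical-pair cells. Irf4, a factor that cDC2 use, stood at 49.3 in the Cd209a/Mgl2-pair cells, 7.28 in the cDC1-pair cells and 8.14 in the classical-pair cells.

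Classical-pair cells held the granule and recruitment genes of blood monocytes. Hp, which encodes haptoglobin, stood at 889, 843, 875, 140 and 592 by library in them and at 43.1, 0, 1.60, 3.94 and 0 in the Cd209a/Mgl2-pair cells. Vcan stood at 284 pooled against 31.3, and Cx3cr1 at 166 against 31.7. Cx3cr1 had no UMI in the cDC1-pair cells. The part of classical-pair cells that also carried Treml4 or Adgre4 in these values was not tested. Before exclusion 11 of the 87 classical-pair cells carried at least 2 neutrophil markers, and their part was not tested either. Control 2 was lowest for Hp, yet above every Cd209a/Mgl2-pair value.

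**Figure D3:**
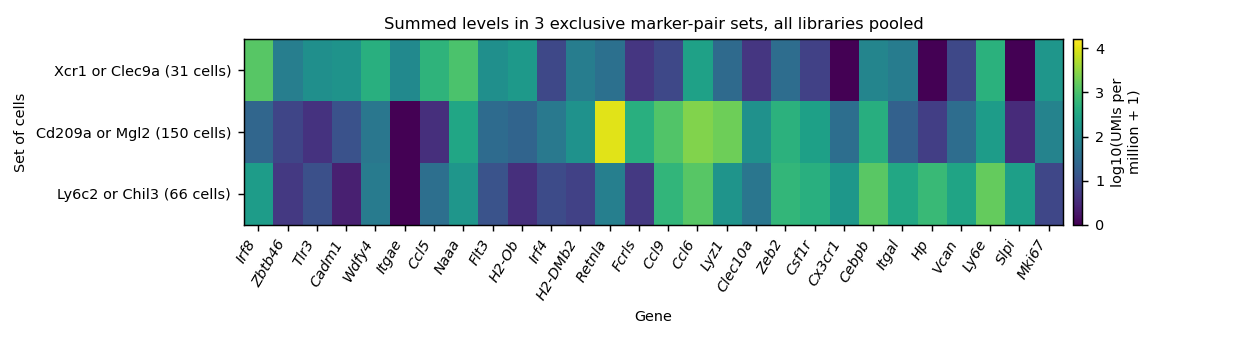
Level, as log10 of CPM plus 1, of 28 genes (columns) in 3 exclusive sets of cells (rows), all libraries pooled. Irf8 and Itgae stand out in the 31 Xcr1 or Clec9a cells, Retnla (10242 CPM) in the 150 Cd209a or Mgl2 cells, and Hp in the 66 Ly6c2 or Chil3 cells.

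A few single cells carried much of some genes. One dendritic-marker cell of frail 2, with 27103 UMIs, held 39 of the 68 UMIs of Fscn1 (57.4%), 297 of the 383 of Ccl5 (77.5%), 20 of the 31 of Ccr7 and 48 of the 152 of Ccl17. These are genes of mature, migrating dendritic cells, and the cell also held 2 UMIs of Xcr1. One frail 1 cell held 505 of the 698 UMIs of S100a8. The Gdf15 UMIs numbered 74, in 27 members.

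Against resident macrophages, members were described in the same way, with 156, 272, 420, 308 and 347 macrophages in the 5 libraries. The rule itself chose on Ccr2, Plac8, Itgax, Flt3, Cd209a, Clec10a, Ms4a4c, Cd163, Folr2 and Pf4. Differences in these and in genes that go with them therefore follow from it in part. Of 9104 genes, 19% were higher in members in 5 of 5 libraries and 26% were lower in 5 of 5. Shares far from these values are what the lists below are read against, with no test.

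Antigen presentation was higher in members. Of the 12 class II genes, 9 were higher in 5 of 5 libraries and none was lower in all 5. H2-Ab1 averaged 6298 ± 927 (SD, n = 5) against 3231 ± 913 in resident macrophages. H2-DMb2 averaged 86.8 ± 27.1 against 6.93 ± 3.15, and Ciita, the master switch of class II genes, 101 ± 21.2 against 48.7 ± 14.2. H2-Aa and H2-Eb1 were higher in 4 of 5 libraries only.

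Adhesion genes were higher for 10 of 12 in all 5 libraries, the rule gene Itgax among them. Itgal was at 95.5, 47.0, 145, 68.6 and 56.5 in members and averaged 1.85 ± 1.29 in resident macrophages, a ratio of 44.7. Itgb7, a gut and lymphoid homing integrin chain, averaged 124 ± 19.2 against 6.00 ± 3.06, and Cd44, which binds hyaluronan, 410 ± 125 against 129 ± 40.4. Itgb1 and Icam1 did not follow.

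Of 22 cytokine and chemokine genes 5 were higher and 7 lower in 5 of 5 libraries, shares near those over all genes. Il1b, the main inflammatory cytokine of monocytes, was at 347, 845, 1481, 2217 and 921 in members and averaged 175 ± 66.7 in resident macrophages. Ccl8, a monocyte attractant made by tissue macrophages, was 75.3-fold higher in the macrophages, at 1407 ± 1166 against 18.7 ± 19.2. Gdf15, the stress hormone in the title of the series, was at 18.4, 4.58, 19.7, 10.8 and 35.1 in members against 121 ± 73.7 in macrophages, and was detected in 9.06% of members, 22.6% of macrophages and 2.34% of stromal cells.

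Phagocytic genes were lower in members for 15 of 22 and higher for 3 in 5 of 5 libraries. C1qa, the complement component, averaged 417 ± 177 against 4751 ± 790. Apoe, the lipid carrier, averaged 1179 ± 330 against 12224 ± 3626, and Mertk, the receptor for dying cells, 13.4 ± 7.84 against 114 ± 36.1. The macrophage factor Maf followed, at 91.6 ± 26.3 against 995 ± 172. The lysozyme gene Lyz2 was close in both, higher in members in 2 of 5 libraries, at 10042 ± 2257 against 10026 ± 2465.

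S100, annexin and galectin genes were higher in members for 9 of 13 in 5 of 5 libraries. Lgals3, a galectin of recruited myeloid cells, averaged 1361 ± 95.6 against 320 ± 49.1, and S100a11 806 ± 39.9 against 218 ± 48.1. Ribosomal protein genes were higher for 19 of 20, with a median log2 ratio of 0.63. Members also had a higher median depth (13570 UMIs against 8577), and its part in these ratios was not tested.

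**Figure D4:**
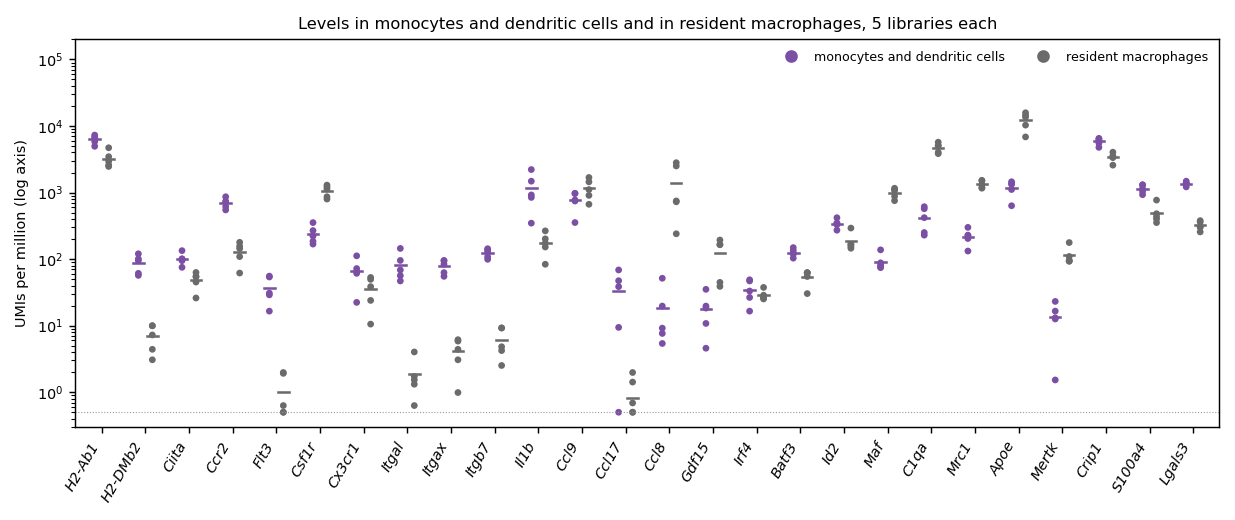
CPM (log axis) of 26 genes in monocytes and dendritic cells (purple) and resident macrophages (grey), 1 point per library, line at the mean of the 5, dotted line for 0 UMIs. Itgal (mean 82.5 against 1.85), Itgb7 and Lgals3 lie higher in the monocytes and dendritic cells in all 5 libraries, and C1qa, Apoe and Maf lie lower in all 5.

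Frail and control muscle were compared by summing UMIs over the members of each library and testing all 8265 genes that passed the filter on low counts. With edgeR's quasi-likelihood test and Benjamini-Hochberg adjustment at 0.05, 0% of genes passed (0 of 8265), and the smallest adjusted p was 0.595. DESeq2 also called 0, with a smallest adjusted p of 0.104. Without the filter on low counts edgeR called 65 genes, 20 higher and 45 lower in frail muscle. An unadjusted p under 0.05 was reached by 302 genes, 109 higher and 193 lower in frail muscle, where 413.25 would be reached with no difference anywhere. Both frail libraries lay above all controls for 8.74% of genes and below all for 9.53%. For a single gene, fewer members that carry it and less of its RNA per member cannot be told apart in such sums.

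None of the 13 gene lists had a member past the threshold in either direction. In the class II list all 12 genes were tested, 4 estimates were above and 8 below 0, and the median log2 change was -0.06, against 0.01 over all genes tested. Scaled for library composition, H2-Ab1 was at 4987 and 7595 in frail and at 7295, 6715 and 5810 in control members, a log2 change of -0.07 ± 0.25 (SE, adjusted p = 1.00 in edgeR). The groups overlapped, as they did for Ccr2, at 621 and 899 against 783, 740 and 547.

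The maturation list had 10 tested genes, 4 of them lower without overlap and 1 higher. Over all tested genes these shares were 9.53% and 8.74%, and a difference of the list from them was not tested. Cd83, a surface mark of activated dendritic cells, was at 168 and 370 in frail and 443, 556 and 375 in control members, a log2 change of -0.76 ± 0.34. Cd80, a co-stimulator, was at 7.39 and 9.52 against 11.8, 19.9 and 21.3. The 1 higher gene was Fscn1, whose UMIs lay mostly in the 1 cell described above. None of these passed.

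Cytokine genes gave 5 of 21 lower without overlap and 1 higher, beside 9.53% lower and 8.74% higher over all tested genes. Whether the list differs from that share was not tested. Il1b was at 349 and 878 in frail and at 1569, 2287 and 918 in control members, a log2 change of -1.37 ± 0.52 (SE, edgeR adjusted p = 1.00). Frail 1 was far below the rest, and the gap between frail 2 and control 3 was small. Il1rn, the natural antagonist of interleukin-1, was at 11.1 and 53.6 against 98.8, 68.4 and 85.3. Gdf15 overlapped, with a log2 change of -0.99 ± 0.68.

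The genes named by the rule for this comparison are those of smallest p whose groups did not overlap. None passed, and each is given as not passing. On the higher side, Zbtb46, the dendritic cell factor, was at 18.5 and 30.9 in frail and 8.16, 8.75 and 7.61 in control members, a log2 change of 1.60 ± 0.43 from 61 UMIs in all (edgeR adjusted p = 1.00). In resident macrophages the log2 change of Zbtb46 was 0.91, also not passing. Klf10 in members was at 126 and 112 against 71.6, 71.6 and 68.5, and Id1 at 137 and 76.2 against 52.6, 46.2 and 56.3. Cldn5, a tight-junction gene of endothelium, was at 49.9 and 90.5 against 26.3, 26.3 and 24.4. One frail 2 cell held 40 of its 181 UMIs. Summed endothelial markers in members were 2446, 2090, 1293, 1223 and 2049 CPM. Their part in the values of Cldn5, Zbtb46 and Id1 was not tested. Nol4l, Stx16 and N6amt1 completed this side, with log2 changes of 2.48, 0.86 and 1.25. Of the 55 UMIs of Nol4l, 26 came from frail 1 and 11 from 1 of its cells, and the log2 change was 1.51 without frail 1. Without frail 1 that of Id1 was 0.56, and without frail 2 that of Cldn5 was 0.93 and that of Fscn1 1.55.

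On the lower side, Nr4a3, an immediate early nuclear receptor, was at 14.8 and 29.8 in frail and 107, 93.1 and 65.5 in control members, a log2 change of -1.94 ± 0.36 (edgeR adjusted p = 0.754). Batf, an AP-1 partner in immune cells, was at 31.4 and 54.8 against 101, 103 and 104. Sdc4, a heparan sulfate proteoglycan, was at 107 and 104 against 200.4, 229 and 271, and Pde4b, which breaks down cyclic AMP, at 79.5 and 88.1 against 172, 193 and 172. Crem, a factor of the cyclic AMP response, was at 7.39 and 15.5 against 54.4, 32.6 and 57.9. Prdm1, Mpp7 and Crispld2 had log2 changes of -1.91, -2.32 and -1.73, each with an edgeR adjusted p of 0.754. That of Crispld2 was -0.54 with doublets removed, -0.56 among members with none of the 3 macrophage genes and -0.04 among members with at least 4 of the 7 genes.

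Interferon-response genes followed the library more than the group. Summed over 18 genes without the abundant Ifitm3 and Ly6e, members held 2288, 704, 654, 770 and 1855 CPM. Frail 1 and control 3 were each above 2 times the other 3 libraries. Of 20 genes, 14 were highest in frail 1 and 5 in control 3. Isg15, a ubiquitin-like protein, was at 409, 71.0, 33.4, 60.2 and 290, and Rsad2, or viperin, at 156, 29.8, 19.7, 35.5 and 214. A single control 3 cell held 83 of the 190 Isg15 UMIs of that library.

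Resident macrophages of the same libraries summed to 1994, 816, 969, 1381 and 1349 and stromal cells to 1178, 777, 847, 1125 and 1078. Frail 1 was highest in all 3 kinds of cell, but control 3 lay below control 2 in macrophages and stromal cells. For the whole list in the frail comparison, 18 of 19 estimates were above 0 with a median log2 change of 0.36, and none passed. Without frail 1 the median was -0.67, and without frail 2 it was 0.87. That 1 library decided its direction.

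**Figure D5:**
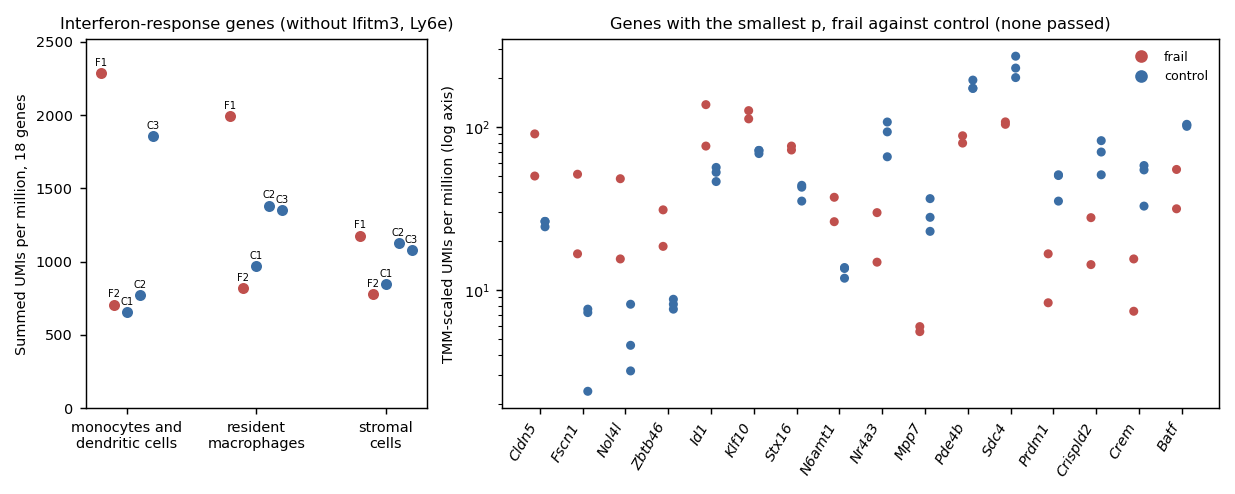
Left: summed CPM of 18 interferon-response genes in 3 kinds of cell, 1 point per library (F frail, C control, with its number). Right: scaled CPM (log axis) of the 16 genes with the smallest p in the frail comparison, none of which passed. In the monocytes and dendritic cells the left panel shows frail 1 (2288) and control 3 (1855) apart from the other 3 libraries.

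Whether frailty went with a different change in members than in resident macrophages was tested on the within-library difference of log2 levels. With limma, 0% of 10833 genes passed (0 genes), the smallest adjusted p was 0.434 and 457 had an unadjusted p under 0.05. Gdf15 had the smallest p of the listed genes. Its log2 change in frail muscle was -0.99 in members and 1.14 in macrophages, a difference of -2.39 ± 0.51 (SE, limma adjusted p = 0.939). Only 74 Gdf15 UMIs underlie the members' side.

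RNA of other cells was present in the members' sums and varied between libraries. Neutrophil markers summed to 2200 CPM in frail 1 and to 29.8, 42.8, 196 and 56.5 in the others. Of the 542 UMIs of the neutrophil marker S100a8 in frail 1, 505 lay in 1 member. At least 2 of the 6 markers were carried by 15 members, 8, 2, 3, 1 and 1 by library. With those 15 cells left out, edgeR still called 0 genes. Myofibre markers summed to 45.9 and 102 in frail and to 875, 3551 and 234 in control members. Stromal cells of the same libraries held 40.1, 97.4, 984, 3111 and 1282, with both frail libraries lowest and control 2 highest as in the members. The part of such RNA in the members' values was not tested.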

How the data were processed

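Droplet libraries of 5 muscles were deposited as UMI counts per gene and barcode, and per the file headers the authors ran Cell Ranger 7.0.0. Besides this tool, bcl2fastq 5.01, Seurat 4.1.2 and the build GRCm38 are listed in the submitters' processing notes, without an annotation or a barcode filter. The members and the gene lists were chosen with earlier results of these data known. UMI counts were summed per library over the members and scaled to CPM. Frail and control sums were compared with edgeR 4.0.16 (TMM, filterByExpr, robust quasi-likelihood test, Benjamini-Hochberg at 0.05), with DESeq2 1.42.0 as an alternative. The difference between members and resident macrophages was tested with limma 3.58.1 on log2 CPM (prior count 2). Shares were compared by exact two-sided permutation over the 10 ways of choosing 2 of 5 libraries. Named genes had an average log2 level of at least 4, no overlap between the groups and a named symbol, and the 8 of smallest p in each direction were taken where none passed. The edgeR step was tested on simulated counts. The deviations of same-numbered libraries from their group means had correlations of -0.10 and 0.05. With 2 frail libraries these deviations mirror each other, so the check cannot settle whether the numbers are pairs. The numbers were not used as pairs in the main tests. P-values measure the spread between these 5 libraries. Of 13 gene lists, 1 listed gene (Tmem173) had no matching symbol. RefSeq promoter windows on GRCm38.p6 were searched for 1 motif.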

Additional observations from a re-analysis of the deposited data

How the results depend on the processing

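The count of 0 genes for frail against control held under 15 of 17 alternatives, including each library left out (range 0 to 0) and, chosen after seeing the data, members with 0 of Cd163, Folr2 and Pf4, members with fewer than 2 neutrophil markers, and dendritic-marker cells alone. Without the filter on low counts 65 genes were called (20 higher, 45 lower). With the replicate block 11 genes were called, of which Ccl5 was higher. The 10 lower ones were Acta1, Myl1, Tnnc2, Mylpf, Tnni2, Tnnt3, Tcap, Myh4, Pvalb and Actn3, all myofibre genes. Whether the numbers pair the libraries could not be settled. For the difference from resident macrophages the count of 0 became 2 without the filter, 3 with the replicate block (Gdf15, Cxcl14, Apod), and 0 to 2 with 1 library left out: 1 without frail 1 (Ccl8), 2 without frail 2 (Il1b, Pf4) and 2 without control 1 (Cxcl9, Inmt). The cause was not tested. The log2 ratio of the member share was -0.91 to -0.34 with 1 library left out, was -0.14 among members with 0 of Cd163, Folr2 and Pf4, and turned to 0.093 against Ptprc cells. That of the dendritic-marker share ranged from -0.76 to 0.19 with 1 library left out, the latter without frail 1. With cells thinned to 2000 UMIs it was -1.39. Of 265 values for the 16 named genes, 253 kept their direction and stayed short of the threshold, 11 passed it without the filter, and Cldn5 turned to -0.71 among members with 0 of the 3 macrophage genes. Keeping direction did not mean keeping size: with at least 2 of 7 genes Nol4l was 0.84 and Zbtb46 0.98, with at least 4 Klf10 was 0.16, Stx16 0.25 and N6amt1 0.53, with 0 macrophage genes Sdc4 was -0.43 and Batf -0.44, and Id1 was 0.53 in dendritic-marker cells. With 37 to 81 members per library, and 8 monocyte-marker cells in 2 of them, small differences were not detectable.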
